A study of Mus musculus with 12 samples.

Results

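Transcripts of 8 genes that encode the subunits of hypoxia-inducible factor (HIF) and the proteins that sense oxygen for it were followed in EMT6 cells, a mouse breast cancer line. HIF1A and EPAS1 encode alpha subunits, ARNT their shared partner, EGLN1, EGLN2 and EGLN3 prolyl hydroxylases, HIF1AN an asparaginyl hydroxylase, and VHL the substrate receptor of a ubiquitin ligase. The genes were taken by symbol from the 60683 rows of the deposited table, and each of the 8 symbols was found. A row was tested where it reached at least 1 TPM, a transcript level corrected for length and depth, in at least 3 of the 12 libraries, which held for 14389 rows and for 7 of the 8 genes. EPAS1 was the gene left untested. EGLN2 reached 1 TPM in 8 libraries, and the other 6 tested genes did so in all 12.

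RNA was sequenced from 4 groups of 3 libraries, called biological replicates by the labels. The groups were shISG20 cells at 1% O2, shISG20 cells at 20% O2, shNTC cells at 1% O2 and shNTC cells at 20% O2. The shISG20 cells carry a short hairpin RNA against ISG20, an interferon-induced exonuclease, and are labelled as an ISG20 knockdown. The shNTC cells carry a control hairpin and are labelled wild type. Oxygen was held for 48 hours, except that the label of shISG20 replicate 3 at 20% O2 reads 484. The design text speaks of a single subclone of each kind. What the hairpin did and what set the subclones apart from the start therefore cannot be told apart. Separate cultures are not stated for the replicates, and p-values reflect the variation among these libraries, which may be technical.

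HIF is a transcription factor made of an alpha subunit and ARNT. When oxygen is present, the EGLN enzymes hydroxylate prolines of the alpha subunit, VHL binds the hydroxylated protein, and the proteasome degrades it, while HIF1AN hydroxylates an asparagine where coactivators would bind. When oxygen is scarce the alpha subunit persists and activates its targets, EGLN1 and EGLN3 among them. This control acts on protein and enzyme activity, and the table holds RNA only.

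The table was made with the human build GRCh38, although the cells are mouse, so a level counts those mouse reads that aligned to the human gene. Values are therefore compared between groups for 1 gene and never between genes. Depth was recovered from the ratios of TPM values as 3173991 to 5201799 reads per library, a lower bound on the reads assigned to genes. Read numbers beside a gene are known up to a common divisor of its row. As a check of the labels, ISG20 was lower in the knockdown: 0.566 ± 0.140 TPM in shISG20 cells against 8.28 ± 0.623 TPM in shNTC cells at 1% O2 (SD, n = 3 each), and 0.225 ± 0.0942 TPM against 2.46 ± 0.372 TPM for the same groups at 20% O2. Of 6 genes listed as markers of mammary carcinoma cells, KRT8, KRT18, KRT19 and VIM were tested. VIM is not particular to such cells. EPCAM stayed under the filter and CDH1 was at 0 in all libraries. The summed level of the 6 genes was 7020 to 8330 TPM at 1% O2 and 1760 to 2060 TPM at 20% O2. The sum does not show the part of each marker, and VIM alone may lead it. At 1% O2 on the log2 scale, VIM rose by 2.14 in shISG20 and 1.79 in shNTC cells, and KRT8 by 1.70 and 1.77. In the same order, KRT18 rose by 1.94 and 1.29, and KRT19 by 3.42 and 3.81. Of 5 leucocyte markers, PTPRC, CD3E, CD68 and CD79A were at 0 throughout, and the sum, which is CSF1R, was 1.18 to 3.23 TPM at 1% O2 and 0 to 0.15 TPM at 20% O2. The 4 fibroblast markers summed in shISG20 cells to 2.83 to 3.54 TPM at 1% O2 and 7.86 to 9.85 TPM at 20% O2, and in shNTC cells to 2.63 to 4.84 TPM at 1% O2 and 18.4 to 21.1 TPM at 20% O2. They did not move together, and DCN was not tested. At 1% O2, PDGFRA was higher in shISG20 cells (0.67 on the log2 scale, limma adjusted p = 0.015) and in shNTC cells (0.90, limma adjusted p = 0.00324). PDGFRB was lower there (-2.03, limma adjusted p = 1.08e-05, and -2.04, limma adjusted p = 1.31e-05). COL3A1 was lower too (-0.70, limma adjusted p = 0.00228, and -2.79, limma adjusted p = 8.93e-08). Between subclones at 20% O2, COL3A1 was 1.90 lower in shISG20 cells (limma adjusted p = 4.03e-05). PDGFRA (0.01, limma adjusted p = 0.982) and PDGFRB (-0.26, limma adjusted p = 0.507) were not called in that comparison. Of the 4 tested genes listed for mammary carcinoma, 1 was called between subclones at each oxygen level. KRT19 was 0.74 higher in shISG20 cells at 20% O2 (limma adjusted p = 0.0213), and VIM 0.23 higher at 1% O2 (limma adjusted p = 0.00221). These genes were named after their values were seen. The 4 endothelial markers summed to at most 0.161 TPM. The part of these markers in the oxygen and subclone differences below was not tested. In bulk RNA, fewer cells with a transcript and less RNA per cell cannot be told apart.

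At 1% O2, EGLN1 and EGLN3 rose strongly in both subclones, ARNT rose slightly, and EGLN2 and HIF1AN fell, although the EGLN2 call in shNTC cells depended on scaling. In shISG20 cells, HIF1A and EGLN3 were lower than in shNTC cells at both oxygen levels. The call for EGLN3 at 20% O2 was unstable.

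**Figure D1:**
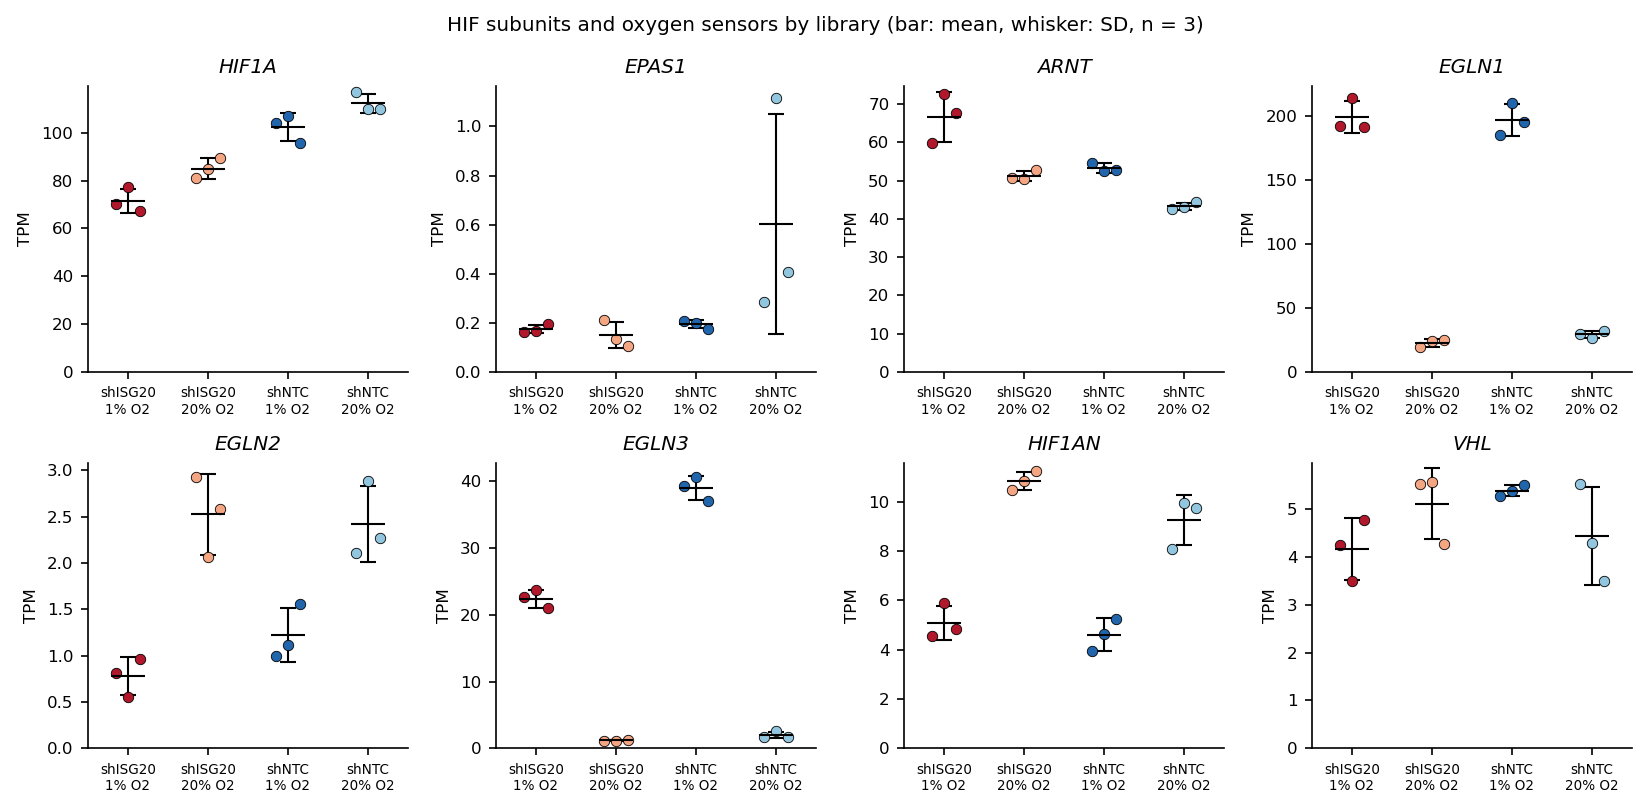
TPM of the 8 genes in each library, with 1 panel per gene and its own axis from 0; points are libraries, bars means and whiskers SD (n = 3 per group). EGLN1 and EGLN3 are high in the groups at 1% O2, and EGLN2 and HIF1AN are low there, while HIF1A is lowest in shISG20 cells at 1% O2 and highest in shNTC cells at 20% O2. The order of HIF1A by oxygen depended on scaling.

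To set sequence beside the oxygen effects, the promoters of the 2 hydroxylase genes that rose and of the 2 hydroxylase genes that fell were read from RefSeq (GRCm38.p6). RefSeq promoters were matched for 7 of the 8 genes, EPAS1 being the one without an entry. Each line gives up to 250 bases before the start of the mouse gene on the strand of the gene, and capitals mark ACGTG or GCGTG, the core of the hypoxia response element, on either strand. A shorter line is cut where a GENCODE transcript begins, or at the end of a core that spans that start. For EGLN2 1 of its 2 annotated starts is shown.
EGLN1: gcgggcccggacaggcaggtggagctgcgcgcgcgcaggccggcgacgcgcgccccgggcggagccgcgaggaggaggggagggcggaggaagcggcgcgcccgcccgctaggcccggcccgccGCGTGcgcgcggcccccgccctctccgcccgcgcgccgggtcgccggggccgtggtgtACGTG
EGLN3: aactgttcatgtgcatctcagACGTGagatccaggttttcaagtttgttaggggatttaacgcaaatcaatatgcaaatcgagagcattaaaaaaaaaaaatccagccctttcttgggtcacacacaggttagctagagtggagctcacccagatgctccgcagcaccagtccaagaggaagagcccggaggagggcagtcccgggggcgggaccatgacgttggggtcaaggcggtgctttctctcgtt
EGLN2: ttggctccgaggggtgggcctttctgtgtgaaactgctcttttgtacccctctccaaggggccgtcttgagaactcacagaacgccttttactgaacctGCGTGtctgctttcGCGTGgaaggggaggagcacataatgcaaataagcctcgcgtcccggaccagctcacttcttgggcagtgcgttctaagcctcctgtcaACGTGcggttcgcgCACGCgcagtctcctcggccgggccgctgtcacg
HIF1AN: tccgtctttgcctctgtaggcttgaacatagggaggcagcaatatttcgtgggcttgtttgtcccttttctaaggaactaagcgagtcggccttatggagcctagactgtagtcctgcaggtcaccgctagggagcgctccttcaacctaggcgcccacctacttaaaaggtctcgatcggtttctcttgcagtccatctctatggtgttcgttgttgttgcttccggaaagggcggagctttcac
The EGLN1 line is chr8:124949318-124949504 on the minus strand and the EGLN3 line chr12:54203875-54204124 on the minus strand. The EGLN2 line is chr7:27166803-27167052 on the minus strand, and the HIF1AN line is chr19:44562604-44562849 on the plus strand. In EGLN1 the cores began 126 and 68 bases before the RefSeq start, in EGLN3 the single core began 229 bases before it, and in EGLN2 4 cores were found. HIF1AN and VHL held no core in this window, while HIF1A, ARNT, EGLN1, EGLN2 and EGLN3 did, 5 of the 7 genes matched. Of 32851 mouse promoter windows of the same length, 38.6% held ACGTG or GCGTG, 16.6% held ACGTG and 28.2% held GCGTG. A core is a description of letters, and binding was not measured.

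HIF1A (ENSG00000100644), the alpha subunit that most cell types carry, had 70.2, 77.2 and 67.4 TPM in shISG20 cells at 1% O2, against 104, 107 and 95.8 TPM in shNTC cells at 1% O2. It had 81.0, 84.8 and 89.5 TPM in shISG20 cells at 20% O2, against 117, 109.9 and 110.1 TPM in shNTC cells at 20% O2. Every shISG20 library lay below every shNTC library at the same oxygen level. The log2 fold change of shISG20 over shNTC was -0.51 (SE 0.068, limma adjusted p = 0.001) at 1% O2 and -0.40 (SE 0.068, limma adjusted p = 0.00384) at 20% O2. On the linear scale the mean fell to 0.699 times the shNTC mean at 1% O2 and to 0.757 times at 20% O2. Both calls held in all 15 alternative settings run. The test of the difference between them, the interaction, did not pass at -0.11 (95% interval -0.32 to 0.10, limma adjusted p = 0.542).

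The effect of oxygen on HIF1A depended on how libraries were scaled. At 1% O2 the mean was 71.6 ± 5.04 TPM in shISG20 cells, against 85.1 ± 4.24 TPM at 20% O2 (SD, n = 3 each), or -0.25 on the log2 scale (SE 0.068, limma adjusted p = 0.00879). In shNTC cells the mean was 102 ± 5.90 TPM at 1% O2 and 112 ± 4.12 TPM at 20% O2, or -0.13 on the log2 scale (SE 0.068, limma adjusted p = 0.123). The median of all tested rows shifted by -0.35 in shISG20 cells and by -0.28 in shNTC cells in these comparisons, so relative to it HIF1A stood 0.10 and 0.15 higher. Under median-of-ratios size factors the sign turned and both values passed, at 0.17 in shISG20 cells (limma adjusted p = 0.0242) and 0.20 in shNTC cells (limma adjusted p = 0.0114). No direction for HIF1A with oxygen is therefore given.

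EPAS1 encodes the second alpha subunit and was barely detected. In shISG20 cells it had 0.163, 0.167 and 0.194 TPM at 1% O2, against 0.212, 0.133 and 0.106 TPM at 20% O2. It had 0.208, 0.201 and 0.176 TPM in shNTC cells at 1% O2. At 20% O2 the shNTC cells had 0.285, 1.11 and 0.409 TPM, and 12 of that group's 19 reads came from replicate 2. The other groups had 6 reads (shISG20, 1% O2), 5 reads (shISG20, 20% O2) and 8 reads (shNTC, 1% O2). Where the groups were compared, the 3 libraries of shISG20 cells at 20% O2 and the 3 of shNTC cells at 1% O2 each lay below those of shNTC cells at 20% O2. Without the filter on low values, limma over 20291 rows called neither difference, with log2 fold changes of -0.44 between subclones at 20% O2 (adjusted p = 0.124) and -0.39 with hypoxia in shNTC cells (adjusted p = 0.0758). A diverged mouse transcript may be undercounted on a human row.

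ARNT (ENSG00000143437), the partner of both alpha subunits, had 59.8, 72.7 and 67.7 TPM in shISG20 cells at 1% O2, against 50.6, 50.5 and 52.8 TPM in shISG20 cells at 20% O2. It had 54.7, 52.4 and 52.9 TPM in shNTC cells at 1% O2, against 42.6, 43.2 and 44.4 TPM in shNTC cells at 20% O2. The libraries at 1% O2 lay above those at 20% O2 in both subclones. ARNT rose by 0.37 on the log2 scale in shISG20 cells (SE 0.070, limma adjusted p = 0.000918) and by 0.29 in shNTC cells (SE 0.070, limma adjusted p = 0.00488), and both calls held in all 15 alternatives. Relative to the median of all rows the increases were 0.72 and 0.57.

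Between subclones ARNT was also higher in shISG20 cells at 1% O2. The log2 fold change was 0.31 at 1% O2 (SE 0.070, limma adjusted p = 0.0142), and this call was lost without shNTC replicate 2 at 1% O2 (adjusted p = 0.0540) and in a limma fit of only the 2 groups compared (adjusted p = 0.0783). At 20% O2 it was 0.24 (SE 0.070, 95% interval 0.08 to 0.39, limma adjusted p = 0.0531), which missed the threshold of 0.05 and passed it in 4 of 15 alternatives.

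The ratio of HIF1A to ARNT within a library does not depend on scaling between libraries. It was 1.17, 1.06 and 0.997 in shISG20 cells at 1% O2, 1.60, 1.68 and 1.69 in shISG20 cells at 20% O2, 1.90, 2.05 and 1.81 in shNTC cells at 1% O2, and 2.75, 2.55 and 2.48 in shNTC cells at 20% O2. The 4 groups did not overlap, and the ratio was lower at 1% O2 than at 20% O2 and lower in shISG20 than in shNTC. This ratio was chosen after the values were seen, and an exact two-sided permutation test of 3 libraries against 3 cannot go below p = 0.1, the value it gave in each of the 4 comparisons. It compares groups only, since the 2 genes align to human rows to an unknown degree.

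**Figure D2:**
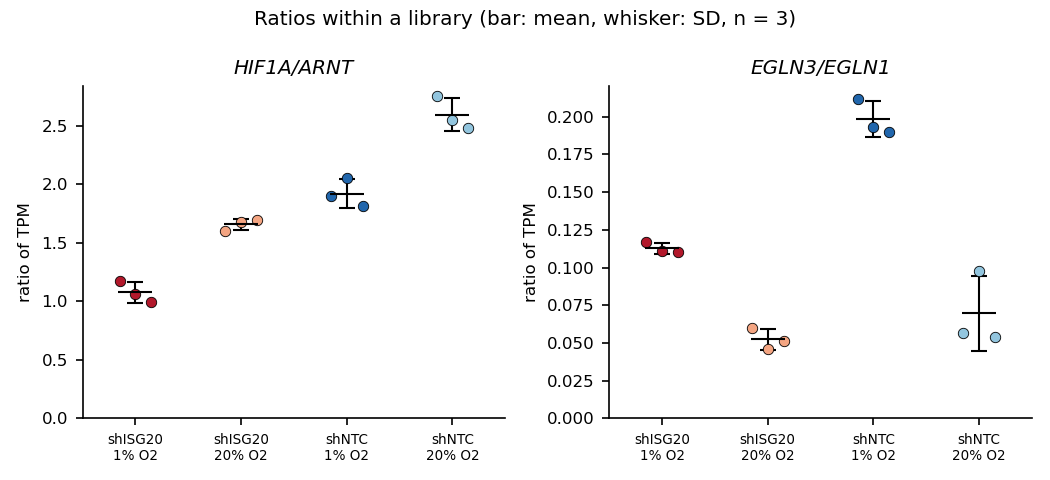
Ratio of TPM of HIF1A to ARNT (left) and of EGLN3 to EGLN1 (right) in each library of the 4 groups; points are libraries, bars means and whiskers SD (n = 3). The HIF1A to ARNT ratio averages 1.08 in shISG20 cells at 1% O2 and 2.59 in shNTC cells at 20% O2, and the EGLN3 to EGLN1 ratio is high in both groups at 1% O2.

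EGLN1 (ENSG00000135766), the prolyl hydroxylase known as the main controller of HIF1A in oxygenated cells, had 192.6, 213.8 and 191.5 TPM in shISG20 cells at 1% O2, against 19.2, 24.4 and 24.7 TPM at 20% O2. In shNTC cells it had 185, 211 and 195 TPM at 1% O2, against 29.9, 26.3 and 31.8 TPM at 20% O2. The lowest library at 1% O2 was far above the highest at 20% O2 in each subclone. EGLN1 rose by 3.08 on the log2 scale in shISG20 cells (SE 0.104, limma adjusted p = 1.72e-09) and by 2.71 in shNTC cells (SE 0.104, limma adjusted p = 6.94e-09), which are 8.75-fold and 6.71-fold on the means. It ranked 29th from the highest of 14389 rows in shISG20 cells and 42nd in shNTC cells.

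The difference in the rise of EGLN1 between subclones was 0.37, shISG20 minus shNTC, and did not pass (95% interval 0.05 to 0.70, limma adjusted p = 0.16). With voom on the recovered reads the same interaction was 0.39 and passed (limma adjusted p = 0.0218). At 1% O2 the shISG20 over shNTC log2 fold change was 0.02 (95% interval -0.21 to 0.25, limma adjusted p = 0.949). At 20% O2 it was -0.36 (95% interval -0.59 to -0.13, limma adjusted p = 0.0508), with 19.2, 24.4 and 24.7 TPM in shISG20 cells below every value in shNTC cells, and it passed in 5 of 15 alternatives.

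EGLN3 (ENSG00000129521), a prolyl hydroxylase known to be induced by hypoxia in many cell types, had 22.6, 23.7 and 20.99 TPM in shISG20 cells at 1% O2, against 1.15, 1.12 and 1.26 TPM at 20% O2. In shNTC cells it had 39.2, 40.7 and 37.0 TPM at 1% O2, against 1.70, 2.58 and 1.72 TPM at 20% O2. The groups at the 2 oxygen levels were far apart in each subclone. EGLN3 rose by 3.43 on the log2 scale in shISG20 cells (SE 0.124, limma adjusted p = 2.99e-09) and by 3.75 in shNTC cells (SE 0.124, limma adjusted p = 2.38e-09). The means were 19.1-fold and 19.5-fold higher. It ranked 14th from the highest in shISG20 cells and 13th in shNTC cells. The interaction was -0.32 (95% interval -0.71 to 0.07, limma adjusted p = 0.312).

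EGLN3 was lower in shISG20 cells than in shNTC cells at 1% O2, where the 3 shISG20 libraries lay below the 3 shNTC libraries. The log2 fold change was -0.77 (SE 0.124, limma adjusted p = 0.0029), a fold of 0.575 on the means, and the call held in all 15 alternatives. At 20% O2 it was -0.45 (SE 0.124, limma adjusted p = 0.0403), on 40 reads in shISG20 cells and 63 reads in shNTC cells. That call was lost in 8 of 15 alternatives, among them without shNTC replicate 2 at 20% O2 (-0.32, limma adjusted p = 0.113), whose 2.58 TPM was the highest of its group. The pseudogene row EGLN3P1, which may share reads with EGLN3, was at 0 at 20% O2 and held 4 reads in shISG20 cells and 6 reads in shNTC cells at 1% O2.

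Within a library the ratio of EGLN3 to EGLN1 averaged 0.113 ± 0.00423 in shISG20 cells and 0.198 ± 0.0119 in shNTC cells at 1% O2 (SD, n = 3 each). At 20% O2 it averaged 0.0523 ± 0.00716 in shISG20 cells and 0.0695 ± 0.0246 in shNTC cells. The groups overlapped at 20% O2 and did not at 1% O2. This ratio too was chosen after its values were seen.

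EGLN2 (ENSG00000269858), a prolyl hydroxylase not known as a hypoxia-induced gene, had 0.811, 0.556 and 0.966 TPM in shISG20 cells at 1% O2, against 2.93, 2.07 and 2.58 TPM at 20% O2. In shNTC cells it had 0.998, 1.11 and 1.56 TPM at 1% O2, against 2.11, 2.88 and 2.27 TPM at 20% O2. The groups did not overlap in either subclone. The means at 1% O2 were 0.308 times those at 20% O2 in shISG20 cells and 0.505 times in shNTC cells. Values on log2(TPM + 1) understate changes at such low levels. EGLN2 fell by 0.99 on the log2 scale in shISG20 cells (SE 0.184, limma adjusted p = 0.000803), on 24 reads at 1% O2 and 75 reads at 20% O2. In shNTC cells it fell by 0.62 (SE 0.184, limma adjusted p = 0.0153), on 44 reads at 1% O2 and 68 reads at 20% O2, but that call was lost with quantile normalization (-0.38, limma adjusted p = 0.125) and under median-of-ratios size factors (-0.40, limma adjusted p = 0.105). It was also lost without shNTC replicate 2 at 20% O2 (limma adjusted p = 0.0606) and without shNTC replicate 1 at 1% O2 (limma adjusted p = 0.0555).

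Between subclones the log2 fold change of EGLN2 was -0.32 at 1% O2 (95% interval -0.73 to 0.09, limma adjusted p = 0.293). At 20% O2 it was 0.04 (95% interval -0.36 to 0.45, limma adjusted p = 0.924). Neither passed, and the read-through row RAB4B-EGLN2 held 1 read in all libraries together.

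HIF1AN (ENSG00000166135), the asparaginyl hydroxylase that blocks coactivator binding, had 4.56, 5.87 and 4.83 TPM in shISG20 cells at 1% O2, against 10.5, 10.8 and 11.2 TPM at 20% O2. In shNTC cells it had 3.93, 4.63 and 5.25 TPM at 1% O2, against 8.08, 9.94 and 9.76 TPM at 20% O2. Every library at 1% O2 lay below every library at 20% O2. HIF1AN fell by 0.97 in shISG20 cells (SE 0.132, limma adjusted p = 8.38e-05) and by 0.87 in shNTC cells (SE 0.132, limma adjusted p = 0.00022) on the log2 scale, and both calls held in all 15 alternatives. The means at 1% O2 were 0.469 and 0.497 times those at 20% O2. Between subclones HIF1AN differed by 0.12 at 1% O2 (95% interval -0.17 to 0.41, limma adjusted p = 0.619) and by 0.21 at 20% O2 (95% interval -0.08 to 0.50, limma adjusted p = 0.367).

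VHL (ENSG00000134086), which recognises hydroxylated alpha subunits, had 4.24, 3.49 and 4.76 TPM in shISG20 cells at 1% O2, against 5.52, 5.55 and 4.26 TPM at 20% O2. In shNTC cells it had 5.27, 5.38 and 5.50 TPM at 1% O2, against 5.53, 4.29 and 3.504 TPM at 20% O2. The groups at the 2 oxygen levels overlapped in both subclones. The log2 fold change was -0.24 in shISG20 cells (95% interval -0.61 to 0.12, limma adjusted p = 0.233) and 0.25 in shNTC cells (95% interval -0.12 to 0.61, limma adjusted p = 0.241). The shNTC value passed as higher with quantile normalization (0.56, limma adjusted p = 0.020) and under median-of-ratios size factors (0.53, limma adjusted p = 0.0251). Between subclones the log2 fold change was -0.31 at 1% O2 (limma adjusted p = 0.25) and 0.18 at 20% O2 (limma adjusted p = 0.568). Every shISG20 library lay below every shNTC library at 1% O2, and the subclones overlapped at 20% O2. The paralogue row VHLL, which may share reads, held 2 to 4 reads per group.

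Set in order of their group means, neighbouring groups were separate at every step for HIF1A and EGLN3. The order is that of TPM values, and for HIF1A the order of the oxygen levels depended on scaling. For ARNT, shNTC cells at 1% O2 and shISG20 cells at 20% O2 overlapped in the middle of the order. For EGLN1 the subclones overlapped at 1% O2, for EGLN2 they overlapped at 20% O2, and for HIF1AN they overlapped at 1% O2, while all other neighbours of these 3 genes were separate. For VHL every pair of neighbours overlapped, although the subclones at 1% O2, which are not neighbours in its order, did not.

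**Figure D3:**
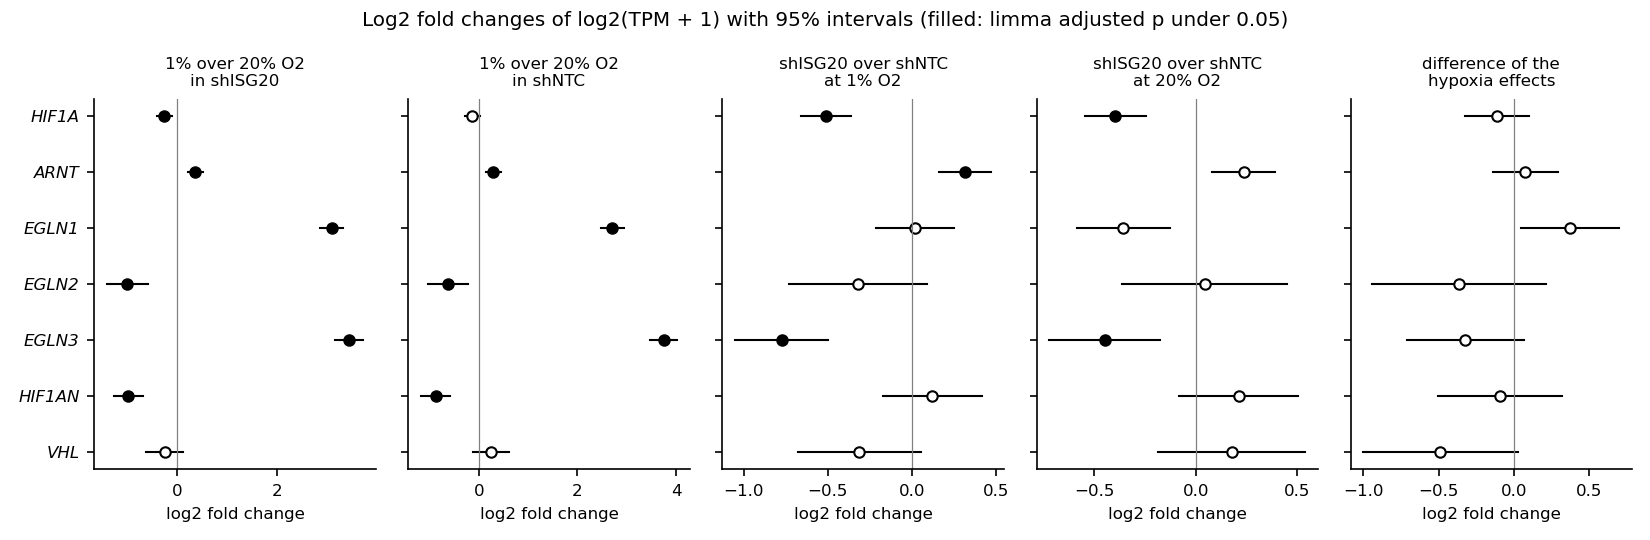
Log2 fold changes of the 7 tested genes on log2(TPM + 1) for hypoxia in each subclone, for shISG20 over shNTC at each oxygen level, and for the difference of the hypoxia effects; lines are 95% intervals and filled points passed the limma threshold. Panels have their own axes. EGLN1 and EGLN3 stand near 3 or above in both hypoxia panels, HIF1A is below 0 at both oxygen levels between subclones, and no gene passed in the last panel.

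Counted over the 7 tested genes, hypoxia gave 3 higher and 3 lower calls in shISG20 cells and 3 higher and 2 lower calls in shNTC cells. Of all tested rows, 56.8% were called in shISG20 cells (14% higher, 42.8% lower) and 50.9% in shNTC cells (12.8% higher, 38.1% lower). Whether the 7 genes depart from these shares was not tested. The split of calls by direction depended on scaling. Under median-of-ratios size factors 3781 rows were higher and 3828 lower in shISG20 cells, with 4 and 2 of the 7 genes, and 3311 were higher and 3210 lower in shNTC cells, with 5 and 1 of the 7 genes. The median log2 fold change of the 7 genes was -0.24 in shISG20 cells and 0.25 in shNTC cells, beside -0.35 and -0.28 for all rows. Between subclones, 1 gene was higher and 2 were lower at 1% O2, where 13.9% of all rows were called (4.25% higher, 9.66% lower). At 20% O2 none was higher and 2 were lower, where 11.6% of all rows were called (5.05% higher, 6.55% lower). In the interaction no gene passed, against 6.93% of all rows (2.62% higher, 4.31% lower), and at an unadjusted p under 0.05 EGLN1 was the one that did (limma). The same test by voom called EGLN1 alone. The libraries of the groups compared did not overlap for 6 of the 7 genes with hypoxia in shISG20 cells (62.2% of all rows) and for 6 in shNTC cells (58.5% of all rows). Between subclones they did not overlap for 5 genes at 1% O2 and for 5 at 20% O2 (31.2% of all rows at each).

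**Figure D4:**
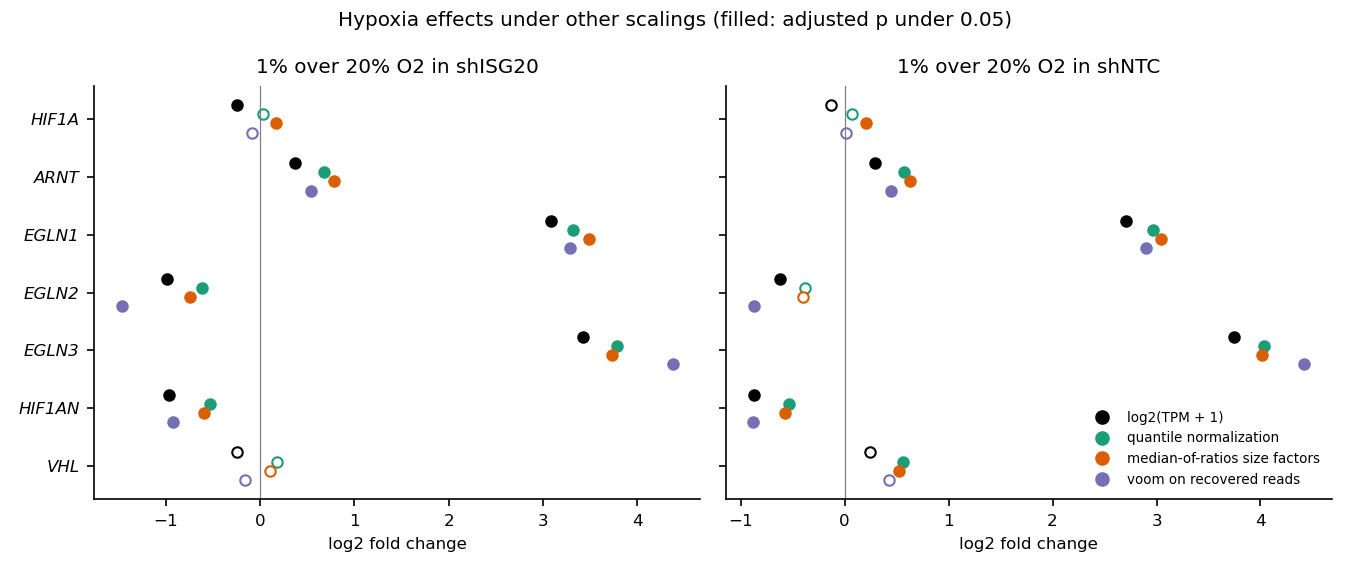
Log2 fold changes of the 7 tested genes at 1% over 20% O2 in shISG20 cells (left) and shNTC cells (right) on log2(TPM + 1), under quantile normalization or median-of-ratios scaling, and with voom; filled points passed the threshold of 0.05. EGLN1, EGLN3, ARNT and HIF1AN keep their side of 0 under all 4, while HIF1A crosses 0 in both panels and VHL crosses it in shISG20 cells.

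The enzymes and partners around these genes were described from 4 lists. The VHL ligase list holds ELOB, ELOC, CUL2, RBX1 and NEDD8 of the ligase and its deubiquitinases USP20 and USP33, and all 7 were tested. At 1% O2, 1 was higher and 6 lower in shISG20 cells, and 1 was higher and 4 lower in shNTC cells, with medians of -0.59 and -0.47, beside -0.35 and -0.28 for all tested rows, of which 42.8% and 38.1% were lower. Under median-of-ratios scaling the counts were 2 higher and 2 lower in each subclone. RBX1, the RING subunit, rose to 85.1 ± 1.46 TPM in shISG20 cells at 1% O2, against 48.6 ± 8.88 TPM at 20% O2 (SD, n = 3 each), by 0.81 (limma adjusted p = 0.000154). CUL2, the cullin scaffold, fell to 45.6 ± 1.62 TPM in shISG20 cells at 1% O2, against 98.1 ± 2.75 TPM at 20% O2, by 1.09 (limma adjusted p = 1.54e-07). In shNTC cells CUL2 fell by 0.82 (limma adjusted p = 1.98e-06). Between subclones at 20% O2, where 11.6% of all rows were called, CUL2 was the 1 gene called, 0.36 higher in shISG20 cells (limma adjusted p = 0.0059).

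Of 6 partners and coactivators, EP300, CREBBP and CITED2 were tested, and ARNT2, HIF3A and CITED4 were not. All 3 fell at 1% O2 in both subclones, where 42.8% of all rows in shISG20 cells and 38.1% in shNTC cells were called lower. Their medians were -1.38 in shISG20 cells and -0.81 in shNTC cells, beside -0.35 and -0.28 for all rows. All 3 fell under quantile normalization, median-of-ratios size factors and voom too. CITED2, which competes with HIF for coactivators, fell by 1.42 in shISG20 cells (limma adjusted p = 2.16e-07) and by 1.17 in shNTC cells (limma adjusted p = 1.35e-06). EP300, an acetyltransferase that the alpha subunit recruits, fell by 1.38 to 23.3 ± 1.85 TPM in shISG20 cells at 1% O2, against 62.4 ± 3.33 TPM at 20% O2 (SD, n = 3 each; limma adjusted p = 3.56e-07). At 1% O2 EP300 was lower in shISG20 cells than in shNTC cells, with -0.55 on the log2 scale (limma adjusted p = 0.00409).

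Of 12 other regulators of HIF turnover and oxygen-sensing enzymes, 11 were tested and P4HTM was not. At 1% O2, 2 were higher and 8 lower in each subclone, with medians of -0.42 in shISG20 cells and -0.49 in shNTC cells beside the same -0.35 and -0.28, while under median-of-ratios scaling 3 were higher and 5 lower in each. Of all tested rows, 14% were higher and 42.8% lower in shISG20 cells, and 12.8% and 38.1% in shNTC cells. SIAH2, a ubiquitin ligase known to target EGLN proteins, rose by 0.76 in shISG20 cells (limma adjusted p = 1.17e-05). ADO, a thiol dioxygenase that senses oxygen directly, fell by 1.40 in shISG20 cells (limma adjusted p = 2.98e-05) and by 1.25 in shNTC cells (limma adjusted p = 8.65e-05). SART1, known to promote degradation of the HIF1A protein, was lower in shISG20 cells at both oxygen levels. It had 45.9 ± 1.59 TPM in shISG20 cells and 83.5 ± 2.81 TPM in shNTC cells at 1% O2, a log2 fold change of -0.85 (limma adjusted p = 6.39e-05), and at 20% O2 the log2 fold change was -0.74 (limma adjusted p = 0.0001).

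Of 20 HIF target genes, 18 were tested and CA9 and ALDOA were not. All 18 tested rose at 1% O2 in both subclones, with medians of 1.96 in shISG20 cells and 2.01 in shNTC cells. All 18 were called higher, as were 14% of all tested rows in shISG20 cells and 12.8% in shNTC cells. SLC2A1, a glucose transporter, rose to 524 ± 20.7 TPM in shISG20 cells at 1% O2, against 43.5 ± 4.33 TPM at 20% O2 (SD, n = 3 each), by 3.56 (limma adjusted p = 6.64e-11). PGK1, a glycolytic kinase, rose by 2.18 in shISG20 cells (limma adjusted p = 1.99e-11) and by 2.09 in shNTC cells (limma adjusted p = 4.23e-11). Between subclones at 1% O2, 2 targets were higher and 8 lower in shISG20 cells, with a median of -0.28 beside -0.07 for all rows. Of all tested rows, 4.25% were higher and 9.66% lower in that comparison. The number of lower targets was 5 without shISG20 replicate 3 at 1% O2, and 6 under median-of-ratios size factors or when the 2 groups alone were fitted. NDRG1 was 0.67 lower (limma adjusted p = 0.001) and BHLHE40 0.58 lower (limma adjusted p = 0.00557). VEGFA, an angiogenic factor, was 0.35 lower (limma adjusted p = 0.00114), whereas P4HA1, a collagen prolyl hydroxylase, was 0.49 higher (limma adjusted p = 0.00234). At 20% O2, 3 targets were higher and 4 lower in shISG20 cells, where 5.05% of all tested rows were higher and 6.55% lower. ENO1 was 0.32 lower there (limma adjusted p = 0.000269) and VEGFA 0.35 lower (limma adjusted p = 0.00104). Both of these calls held in all 15 alternatives. ADM, a vasodilator peptide gene, was 1.28 higher at 20% O2 (limma adjusted p = 0.0047), a call lost in a fit of the 2 groups alone (limma adjusted p = 0.0529).

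**Figure D5:**
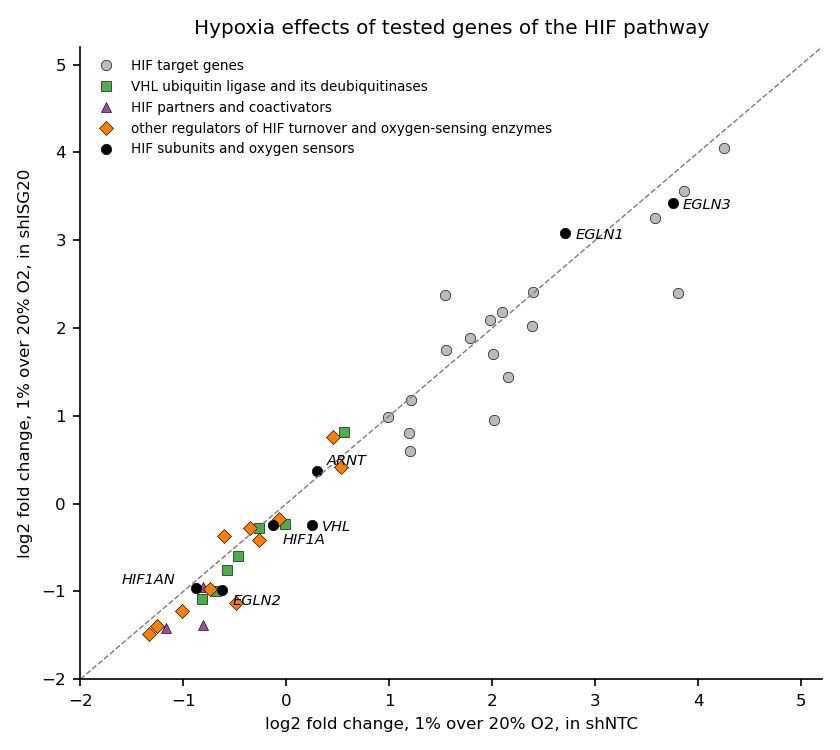
Log2 fold change at 1% over 20% O2 in shISG20 cells (vertical) against that in shNTC cells (horizontal) for each tested gene of the 4 lists and for the 7 genes named; the dashed line marks equal values. The 18 targets sit above 0 on both axes and the 3 partners and coactivators below 0, with EGLN1 and EGLN3 among the targets.

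The rows with a mouse counterpart and a mean of at least 5 TPM that followed a gene most closely over the 12 libraries were named by the smallest root mean square difference of the centred log2(TPM + 1). For EGLN1 these were GYS1, ALDOC and FAM162A, at 0.20 to 0.23, where EGLN1 itself varied with an SD of 1.46. For EGLN3 they were ENO2, SLC2A1 and NOS2, at 0.17 to 0.29, where EGLN3 varied with an SD of 1.82. NOS2 met the mean of 5 TPM only through 1% O2, with 9.89 TPM in shISG20 and 21.1 TPM in shNTC cells. At 20% O2 it had 0.0952 and 0.0565 TPM in the same order, near the floor. For HIF1A they were USP22, MKRN1 and EPS15, at 0.07 to 0.08, where HIF1A varied with an SD of only 0.26. For ARNT they were BRWD3, DDB1 and SAP18, each at 0.08, where ARNT varied with an SD of only 0.22. For EGLN2 they were ZBTB44, DDRGK1 and COPS3, at 0.11 to 0.13 beside an SD of 0.44. For HIF1AN they were TIMM13, PRMT5 and NUTF2, each at 0.10 beside an SD of 0.48.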

How the data were processed

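RNA from 12 libraries of EMT6 cells was measured. The authors deposited 1 table of TPM values with 60683 rows of human Ensembl genes. The submitters' processing notes name FastQC, STAR and featureCounts with GRCh38. Tool versions and how TPM was computed are not given in the sources used here. The build is human while the cells are mouse, so diverged genes may be undercounted or listed at 0.

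Values above 0 were ratios of whole numbers in 100% of cases (tolerance 0.0001), which gave the reads behind them up to a divisor per row. Precision is limited by these reads, which sum to 3173991 to 5201799 per library as a lower bound. Rows with at least 1 TPM in 3 libraries (14389) were tested with limma 3.58.1 in R 4.3.3 on log2(TPM + 1), 1 coefficient per group over all 12 libraries, with a variance trend and Benjamini-Hochberg adjustment over all rows (threshold 0.05). Log2 fold changes understate low genes. The fit was tested on simulated data for the comparisons of groups, with changes placed only in rows well above the filter. That test does not cover the interaction or genes as low as EGLN2. Tables and figures used Python 3.11.15, pandas 2.3.3, numpy 2.4.6 and matplotlib 3.10.9. The genes, the lists and the rule for named genes were chosen with earlier results of these data known. The rule named the 8 genes, rows that may share their reads, up to 4 called genes of each list and comparison by smallest p, and the 3 closest rows in pattern, which for VHL are not reported here. Alternatives were a pseudocount of 0.1, no filter, quantile normalization, median-of-ratios size factors, no variance trend, rows matching a mouse gene, voom on recovered reads, a replicate block, a fit of only the groups compared, and leaving out each library. The block was an alternative, since the labels do not say what a replicate number shares. Same-numbered libraries did not deviate together in these data (correlations -0.042 to 0.015 over 18 pairs).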

Additional observations from a re-analysis of the deposited data

Results flagged for a closer look

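No HIF subunit or oxygen sensor was among the results that differed between the subclones in their response to oxygen. Among the genes of the 4 lists, the cell type markers and ISG20, the following differed by the limma test of the interaction. Values are the log2 fold change at 1% over 20% O2 in shISG20 cells minus that in shNTC cells. NDRG1 differed by -1.07 (limma adjusted p = 0.00128). ISG20, the targeted gene, differed by -1.07 (limma adjusted p = 0.0192) on the log2(TPM + 1) scale, which compresses values under 1 TPM. Its mean at 1% O2 was 2.52 times that at 20% O2 in shISG20 cells (0.566 and 0.225 TPM, from 19 and 7 reads), against 3.36 times in shNTC cells. The call was lost in 4 of 20 alternatives, computed after seeing the data for ISG20, ADM, VIM and COL3A1: with a pseudocount of 0.1 (-0.66, limma adjusted p = 0.422), by voom (-0.47, adjusted p = 0.682), and without shNTC replicate 1 or 2 at 1% O2 (adjusted p = 0.0511 and 0.053). COL3A1, a fibroblast marker, differed by 2.09 (limma adjusted p = 0.001) and passed in all 20. ADM differed by -1.41 (limma adjusted p = 0.0266), lost in 8 of 20 alternatives. VIM differed by 0.35 (limma adjusted p = 0.00347), lost with quantile normalization (0.18, adjusted p = 0.185) and without a variance trend (adjusted p = 0.055). P4HA1 differed by 0.84 (limma adjusted p = 0.00185) and DDIT4 by -0.71 (limma adjusted p = 0.00375). HK2 differed by -0.60 (limma adjusted p = 0.0235), lost in 5 of 20 alternatives. EP300 differed by -0.57 (limma adjusted p = 0.0301), lost in 8 of 20 alternatives. ELOB differed by -0.22 (limma adjusted p = 0.0496), lost in 17 of 20 alternatives. ENO1, a HIF target, differed by 0.19 (limma adjusted p = 0.046), a call that was not followed in the alternatives. Of all tested rows, 6.93% passed.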

How the results depend on the processing

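Over 35 values of the 7 tested genes and 560 alternative values, 521 kept direction and side of the threshold, 15 lost a call, 12 gained one and 12 changed sign. The sign changes were HIF1A with hypoxia in shNTC cells (0.069 with quantile normalization, 0.20 under median-of-ratios size factors, 0.016 by voom) and in shISG20 cells (0.035 and 0.17 with the first pair), and VHL with hypoxia in shISG20 cells (0.18 and 0.10). The same holds for EGLN1 between subclones at 1% O2 (-0.019 with quantile normalization, -0.027 without shNTC replicate 1, -0.035 without shISG20 replicate 2, with 0.066 as the highest value when a library was left out, without shNTC replicate 2) and EGLN2 at 20% O2 (-0.022 without shNTC replicate 1, -0.039 without shISG20 replicate 1, and at most 0.14 when a library was left out, without shISG20 replicate 2). Among list genes, ELOB (0.19) and RACK1 (0.15) turned in shISG20 cells with hypoxia under median-of-ratios size factors. EP300 between subclones at 20% O2 turned to -0.026 with quantile normalization, -0.014 without shNTC replicate 1 and -0.0066 without shISG20 replicate 2, and was at most 0.071 when a library was left out, without shNTC replicate 3. The cause was not tested.

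Split by direction, the counts of called rows moved with scaling. With hypoxia, shISG20 cells had 2021 higher and 6152 lower rows as reported, 3338 and 3950 after quantile normalization, but 3781 and 3828 once scaled by median-of-ratios. The shNTC cells had 1847 and 5479 as reported, 2913 and 3586, and 3311 and 3210 with those scalings. Higher rows between subclones at 1% O2 were 1016 with median-of-ratios and 1027 by voom (611 reported), at 20% O2 1249 by voom (727 reported), and for the interaction 590 with median-of-ratios (377 reported). Totals over both directions stayed within 1.5 times of the value reported, except as follows. Between subclones at 1% O2, 957 rows were called in a fit of the groups compared, against 2001. The interaction gave 1835 rows with voom, against 997. Leaving out a library gave 1087 to 1160 rows between subclones at 20% O2 (1670 with all), 1155 to 1889 at 1% O2, 6617 to 6730 with hypoxia in shNTC cells (7326 with all), 7590 to 7779 in shISG20 cells (8173 with all) and 595 to 1043 for the interaction. The lowest were without shISG20 replicate 2 at 20% O2 (1087 and 595) and without shNTC replicate 2 at 1% O2 (1155 and 635). The others past 1.5 times were 1319 without shISG20 replicate 3 at 1% O2, 632 without shISG20 replicate 3 at 20% O2 and 655 without shNTC replicate 1 at 20% O2. With the replicate number as a block, the counts were 1438 between subclones at 20% O2, 1748 at 1% O2, 7129 with hypoxia in shNTC cells, 8087 in shISG20 cells and 726 for the interaction, and it ended the call of EGLN3 at 20% O2 (adjusted p = 0.0533) and no other call among the 7 genes. Reads of EPAS1, EGLN2 and EGLN3 at 20% O2 limit what can be seen of them.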
